A study of Mus musculus with 37 samples.

Results

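Prostaglandins and leukotrienes are made from arachidonic acid, and the description here follows 10 genes of that synthesis in bone marrow-derived macrophages (BMDMs). The 10 genes (Pla2g4a, Ptgs1, Ptgs2, Ptges, Ptges2, Ptges3, Tbxas1, Alox5, Alox5ap and Lta4h) were taken by symbol from a table of 24016 genes, and all 10 were found. The BMDMs came from male mice, 6 to 9 weeks old and labelled C57BL/6J, that were either wild type (WT) or Arntl-/-, which lack the clock transcription factor Bmal1 encoded by Arntl throughout the body. Marrow cells of both genotypes were grown with the growth factor M-CSF for 6 days and then given Kdo2-lipid A (KLA), the part of bacterial lipopolysaccharide that the receptor TLR4 recognizes. PolyA RNA was sequenced at 0, 6, 24 and 48 h of KLA, and each of the 8 conditions was sequenced as 1 library. No replicate spread could therefore be measured, and no test between conditions was made.

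Cytosolic phospholipase A2 releases arachidonic acid from membrane phospholipids. The cyclooxygenases turn it into prostaglandin H2, from which separate synthases make prostaglandin E2 (PGE2), thromboxane and other prostanoids. In the other branch 5-lipoxygenase, helped by its activating protein, makes leukotriene A4, which leukotriene A4 hydrolase turns into the neutrophil attractant leukotriene B4. Macrophages are a classical source of both kinds of lipid, and induction of cyclooxygenase 2 and of the inducible PGE synthase is a textbook response to lipopolysaccharide.

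In short, KLA was followed by higher Ptgs2 and Ptges in both genotypes. Ptgs1 fell by at least 1.5-fold in Arntl-/- cells, to 0.39 times its 0 h level at 48 h. In WT cells it declined by less than 1.5-fold, to 0.81 times. The Arntl-/- level of Ptgs1 at 48 h was 0.53 times that of WT. No other member fell by 1.5-fold. The other 7 genes were within 1.5-fold of their 0 h level and of the other genotype in every comparison on this scale. Values are FPKM (fragments per kb of exon, here per 10000000 reads) scaled to a common library size. Levels of different genes can thus be set side by side. A gene is said to have risen or fallen when its scaled FPKM differed by at least 1.5-fold, which is a size and not a test. Ratios were taken after adding 0.1 to both values, and the intervals given are 95% intervals that cover the counting of reads only, not the spread between cultures or mice.

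The promoters of the members that moved are shown first, from the RefSeq promoter table of the GRCm38.p6 build, in which 9 of the 10 genes had an entry. Alox5ap had none. Ptges2 is added because it is the other member with the E-box CACGTG, the sequence to which Bmal1 binds with its partner Clock. Capitals mark matches to the motifs searched. Each run reads 5′ to 3′ towards the gene and ends just before the transcript start of the deposited table, except that of Ptgs2, whose deposited transcript starts after a further 43 bases.
Ptgs1 (chr2:36230176-36230425, plus strand): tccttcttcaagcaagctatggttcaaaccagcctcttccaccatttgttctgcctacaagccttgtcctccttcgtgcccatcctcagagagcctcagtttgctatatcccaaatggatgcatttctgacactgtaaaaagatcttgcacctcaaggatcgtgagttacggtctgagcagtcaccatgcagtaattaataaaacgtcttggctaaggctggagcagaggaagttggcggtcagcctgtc
Ptgs2 (chr1:150099781-150100080, plus strand): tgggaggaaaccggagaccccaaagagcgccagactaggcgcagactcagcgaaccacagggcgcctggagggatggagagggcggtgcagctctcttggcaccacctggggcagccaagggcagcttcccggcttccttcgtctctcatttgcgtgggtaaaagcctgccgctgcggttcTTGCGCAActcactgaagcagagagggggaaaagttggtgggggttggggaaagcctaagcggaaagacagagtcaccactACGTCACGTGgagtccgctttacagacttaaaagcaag
Ptges (chr2:30903298-30903547, minus strand): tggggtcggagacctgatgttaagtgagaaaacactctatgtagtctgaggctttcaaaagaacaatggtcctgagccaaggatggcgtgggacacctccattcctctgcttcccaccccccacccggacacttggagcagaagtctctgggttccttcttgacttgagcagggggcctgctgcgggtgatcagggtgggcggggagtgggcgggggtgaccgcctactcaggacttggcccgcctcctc
Ptges2 (chr2:32395640-32395889, plus strand): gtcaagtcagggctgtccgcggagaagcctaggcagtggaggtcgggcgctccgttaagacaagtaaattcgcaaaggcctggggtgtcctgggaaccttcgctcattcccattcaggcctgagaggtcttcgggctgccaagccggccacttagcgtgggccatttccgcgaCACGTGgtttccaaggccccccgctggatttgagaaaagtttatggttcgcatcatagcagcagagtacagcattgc
The motifs searched on both strands, in windows of 300 bases, were the E-box CACGTG, the CRE half-site TGACGT, the C/EBP site TTGCGNAA, a kappaB-like site GGNNTTTCC, the nuclear receptor half-site AGGTCA and the TATA box TATAAA. The Ptgs2 window held the E-box, a CRE half-site on the opposite strand (ACGTCA) whose last bases are the first bases of that E-box, and the C/EBP site. Its E-box ended 72 bases before the deposited transcript start, and so did the E-box of Ptges2. Each window held 250 bases before the RefSeq start and 50 bases from it. The E-box (from base 267) and CRE half-site (from base 263) of Ptgs2 lay after that start. The E-box of Ptges2 (from base 174) lay before it. Of 32851 promoters in the table, 7.15% held the E-box, 7.51% the CRE half-site and 0.798% the C/EBP site. A kappaB-like site stood in 5.82%, a nuclear receptor half-site in 16.3% and a TATA box in 13.6%. None of the 6 motifs was in the windows of Ptgs1 or Ptges. A match is a description of the letters, and binding was not analysed here.

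The libraries held between 8587560 and 27036783 reads on genes, the fewest in Arntl-/- cells at 48 h and the most in WT cells at 6 h. The members had between 129 and 10214 reads each in a library. The deepest library, WT at 6 h, stood apart: its most highly expressed genes (the top 10%) lay 0.35 below the mean of the 8 libraries on the log2 scale, whereas those of WT and Arntl-/- at 48 h lay 0.30 and 0.25 above it and those of Arntl-/- at 0 h 0.20 below it. Arntl checked the labels, with scaled FPKM of 32.3 to 38.7 in the 4 WT libraries and of 11.3 to 20.2 in the 4 Arntl-/- libraries. Nos2, an enzyme induced by TLR4 signalling, went from 11.9 to 273 scaled FPKM between 0 and 48 h in WT cells, and Arntl-/- cells held 31.5 and 523 at these times. All 10 macrophage markers looked for, such as Adgre1, Csf1r and Lyz2, passed the filter on reads. They moved too: by 48 h 6 of 10 rose and 2 fell in WT, and 6 rose and 1 fell in Arntl-/- cells. By that time Mertk had risen in WT only and Cd68 in Arntl-/- only. Mrc1 had fallen in both genotypes and Cd163 in WT only. By 24 h 1 rose and none fell in WT, and 5 rose and 1 fell in Arntl-/- cells. None rose by 6 h, when 2 fell in WT and 1 in Arntl-/- cells. The median difference of the 10 markers at 6 h was 0.38 in log2, with Arntl-/- above WT cells. The genes analysed were the 10487 with at least 100 scaled reads in at least 1 WT library, and all 10 members were among them. Of the 10487, 13.5% rose and 15.1% fell by 48 h in WT, and 15.2% rose and 17.2% fell in Arntl-/- cells.

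**Figure D1:**
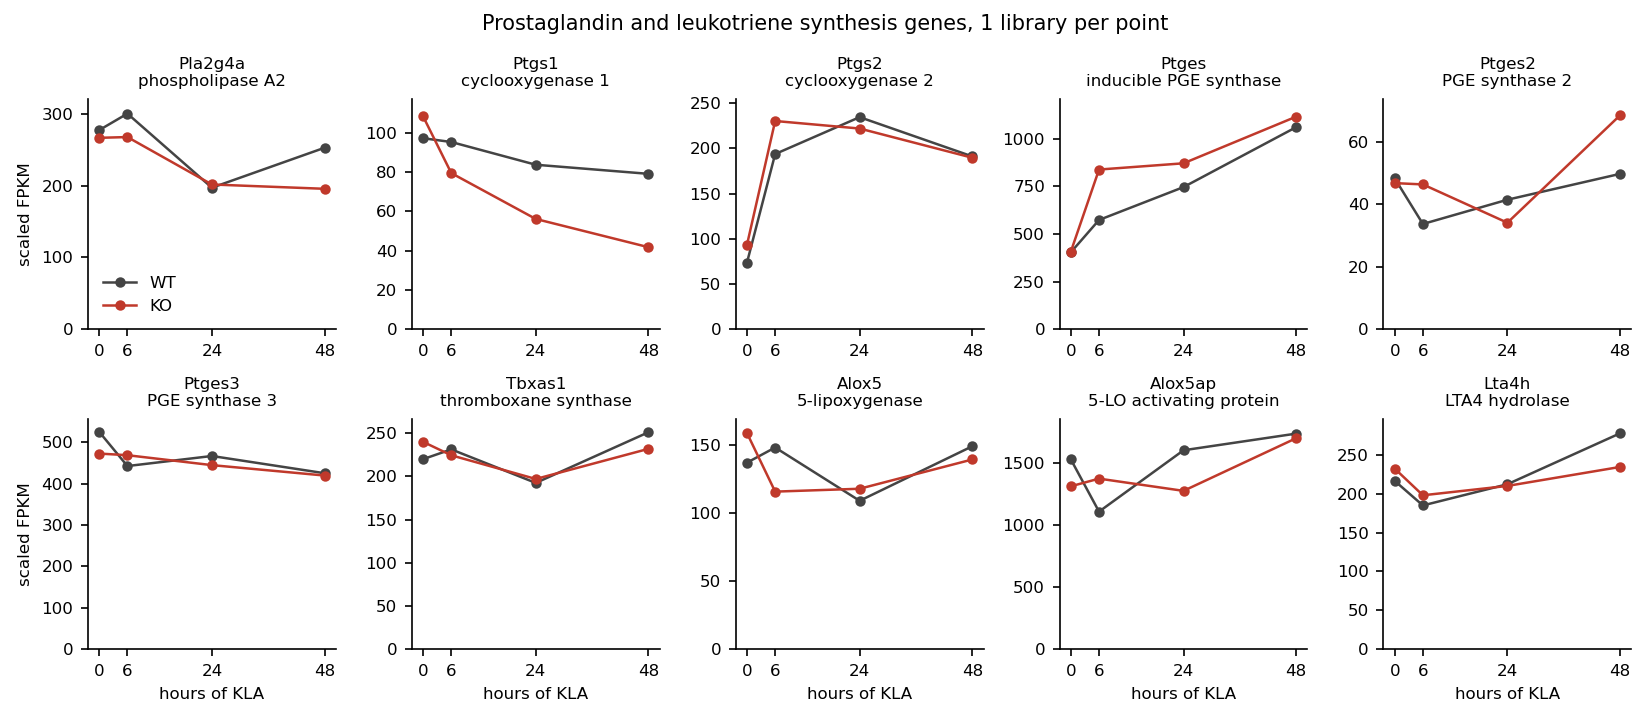
Scaled FPKM (vertical axes, from 0) of the 10 genes against hours of KLA, with 1 point for each library, WT in grey and Arntl-/- (KO) in red. Ptgs1 is lowest in the Arntl-/- library at 48 h, at 41.8 scaled FPKM, and Ptgs2 and Ptges are lowest in the 2 libraries at 0 h.

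Pla2g4a (chr1:151676752-151808414 in mm9, minus strand), the cytosolic phospholipase A2 that supplies the pathway, was at 277, 300, 197 and 253 scaled FPKM in WT cells at 0, 6, 24 and 48 h. The Arntl-/- libraries held 267, 268, 202 and 196. The 24 h libraries of both genotypes were low, and at 48 h only the WT value was higher again. The log2 ratio of Arntl-/- to WT at 48 h was -0.37 (interval -0.51 to -0.23). No change of this gene reached 1.5-fold on the main scale, but with the values as deposited it was at 0.65 times its 0 h level in Arntl-/- cells at 48 h.

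Ptgs1 (chr2:36085946-36107791 in mm9, plus strand) encodes cyclooxygenase 1, the form that most tissues hold without a stimulus. Its scaled FPKM in WT cells were 97.2, 95.3, 83.7 and 79.1 at 0, 6, 24 and 48 h, and those in Arntl-/- cells were 108, 79.5, 56.1 and 41.8. The Arntl-/- libraries started above WT, were lower at each later time and at 24 and 48 h lay below all 4 WT libraries. In WT cells the level at 48 h was 0.81 times that at 0 h (interval 0.71 to 0.94), which is not a fall by 1.5-fold. In Arntl-/- cells Ptgs1 fell, to 0.52 times its 0 h level at 24 h (0.46 to 0.58) and to 0.39 times at 48 h (0.32 to 0.46).

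Between genotypes the log2 ratio of Ptgs1 went from 0.16 at 0 h (interval 0.01 to 0.31) to -0.26 at 6 h (-0.41 to -0.12), -0.58 at 24 h (-0.78 to -0.37) and -0.92 at 48 h (-1.21 to -0.64). The last is a level of 0.53 times WT, and 2.13% of the genes analysed had a lower ratio at that time. The value at 24 h lay just inside the 1.5-fold line, and passed it at -0.60 with upper-quartile scaling and at -0.62 with a correction for expression level. The log2 change from 0 to 48 h differed between genotypes by -1.08 (counting SE 0.16), a lower value than in all but 2.28% of the genes analysed.

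Ptgs2 (chr1:151947254-151955142 in mm9, plus strand) encodes cyclooxygenase 2, the inducible form. Its scaled FPKM in WT cells were 73.7, 194, 235 and 191 at 0, 6, 24 and 48 h, and those in Arntl-/- cells were 93.4, 230, 222 and 190. Both 0 h libraries were far below the 6 libraries with KLA, and the genotypes overlapped at the later times. The rise in WT cells was 2.63-fold at 6 h (interval 2.42 to 2.86), 3.18-fold at 24 h (2.90 to 3.49) and 2.59-fold at 48 h (2.35 to 2.86). In Arntl-/- cells it was 2.46-fold (2.30 to 2.64), 2.37-fold (2.22 to 2.55) and 2.03-fold (1.87 to 2.21). At 6 h 99.4% of the genes analysed had a lower log2 change than Ptgs2 in WT cells, and 99.6% in Arntl-/- cells.

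The Arntl-/- level of Ptgs2 was 1.27 times WT before KLA (interval 1.15 to 1.40) and 1.19 times at 6 h (1.13 to 1.25). It was 0.95 times at 24 h (0.89 to 1.01) and 0.99 times at 48 h (0.91 to 1.08). None of these reached 1.5-fold. The log2 change from 0 to 24 h was -0.42 relative to WT (counting SE 0.08), from the higher starting level.

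Because both cyclooxygenases were measured in the same libraries, their ratio depends on no scaling between libraries. Ptgs2 stood at 0.76 times the FPKM of Ptgs1 in WT cells at 0 h (interval 0.68 to 0.85), and at 2.03, 2.80 and 2.42 times at 6, 24 and 48 h. In Arntl-/- cells it stood at 0.86 times at 0 h (0.79 to 0.94), and at 2.90, 3.96 and 4.54 times later. Ptgs1 was thus the more abundant transcript before KLA and Ptgs2 after it in both genotypes. The intervals of the genotypes did not overlap from 6 h on, and at 48 h they were 2.12 to 2.76 for WT and 3.83 to 5.42 for Arntl-/-. They cover the counting of reads in 1 library per condition and not the spread between cultures, so whether the genotypes differ was not tested.

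**Figure D2:**
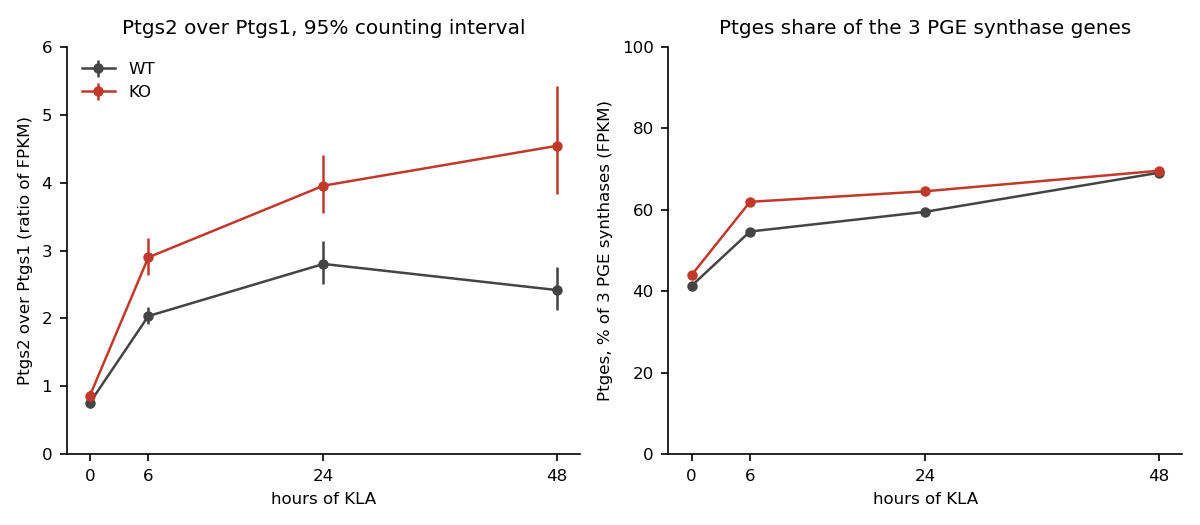
Left, ratio of Ptgs2 to Ptgs1 FPKM within each library against hours of KLA, with bars for the 95% counting interval, in WT (grey) and Arntl-/- (KO, red). Right, Ptges as a percentage of the summed FPKM of Ptges, Ptges2 and Ptges3, which was 41.4 at 0 h and 69.1 at 48 h in WT and 44.0 and 69.6 in Arntl-/-.

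Of the PGE synthases, Ptges (chr2:30744991-30758817 in mm9, minus strand) encodes the inducible microsomal enzyme that works with cyclooxygenase 2. Its scaled FPKM were 404, 574, 747 and 1062 in WT cells at 0, 6, 24 and 48 h. The Arntl-/- libraries held 408, 839, 872 and 1117. Each time point was above the one before in both genotypes, and Arntl-/- was the higher at 4 of 4 times, by little at 0 and 48 h. In WT cells the level was 1.42-fold that at 0 h after 6 h (interval 1.36 to 1.48), and rose 1.85-fold by 24 h (1.76 to 1.93) and 2.63-fold by 48 h (2.51 to 2.75). In Arntl-/- cells the rise was 2.06-fold already at 6 h (1.98 to 2.13), then 2.14-fold (2.06 to 2.22) and 2.74-fold (2.63 to 2.85). After a correction for expression level the folds at 48 h were 2.22 in WT and 2.13 in Arntl-/- cells.

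Between genotypes Ptges at 6 h was at 1.46 times WT (interval 1.42 to 1.51), just inside the 1.5-fold line, and 97.2% of the genes analysed had a lower ratio. That value rests on the WT library at 6 h, in which highly expressed genes were low. With a correction for expression level the ratio was 1.19 at 6 h and 1.26 at 24 h, so the time of the largest gap changes with it. With the same correction the WT level at 6 h was 1.73-fold that at 0 h, and with the values as deposited 1.58-fold, both past 1.5-fold. That the rise passed the line at 6 h in Arntl-/- and not in WT cells therefore depends on the scaling, and whether the genotypes differ was not tested.

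Ptges2 (chr2:32251410-32258260 in mm9, plus strand), a second membrane-associated PGE synthase, had the lowest mean scaled FPKM of the members over the 8 libraries, although Ptgs1 was lower than it in Arntl-/- cells at 48 h. Its scaled FPKM were 48.3, 33.7, 41.5 and 49.8 in WT cells, against 46.8, 46.4, 34.1 and 68.5 in the Arntl-/- libraries. The highest value was that of Arntl-/- at 48 h, and the low ones came from different times in the 2 genotypes. The log2 ratio between genotypes was -0.05 at 0 h (interval -0.31 to 0.22), 0.46 at 6 h (0.21 to 0.71), -0.28 at 24 h (-0.62 to 0.06) and 0.46 at 48 h (0.12 to 0.80). At 48 h in Arntl-/- cells it was 1.46-fold its 0 h level, and past the line at 1.53-fold with upper-quartile scaling and 1.63-fold with the correction for expression level. Ptges3 (chr10:127496038-127514310 in mm9, plus strand) encodes the cytosolic PGE synthase, also known as the Hsp90 co-chaperone p23. It varied little, between 425 and 525 scaled FPKM in WT and between 419 and 472 in Arntl-/- cells. Its values are uncertain, since 81.9% of its transcript has a copy of at least 95% identity elsewhere in the genome. Of the Ptges transcript 20.6% has such a copy, and the other 8 members have none.

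Within a library Ptges made up 41.4% of the summed FPKM of the 3 PGE synthase genes in WT cells at 0 h and 54.7%, 59.5% and 69.1% at 6, 24 and 48 h. The shares in Arntl-/- libraries were 44.0%, 62.0%, 64.6% and 69.6%, higher than WT by most at 6 h. Ptges was less abundant than Ptges3 at 0 h in both genotypes, at 0.77 and 0.86 times its FPKM, and more abundant in all 6 libraries with KLA. This order and these shares rest on the uncertain values of Ptges3.

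Tbxas1 (chr6:38868985-39034578 in mm9, plus strand), the thromboxane synthase, stayed between 193 and 251 scaled FPKM in WT and between 197 and 240 in Arntl-/- cells. Both genotypes were lowest at 24 h. Its ratio between genotypes was between 0.92 and 1.09 at the 4 times.

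In the leukotriene branch, Alox5 (chr6:116360089-116411196 in mm9, minus strand) encodes 5-lipoxygenase. It was at 137, 148, 109 and 149 scaled FPKM in WT and at 159, 116, 118 and 140 in Arntl-/- cells. The genotypes stood furthest apart at 6 h, where the Arntl-/- level was 0.78 times WT (interval 0.72 to 0.85). The dip came at 24 h in WT and was already there at 6 h in Arntl-/- cells. Alox5ap (chr5:150076634-150099623 in mm9, plus strand) encodes the activating protein that presents arachidonic acid to 5-lipoxygenase, and was the most abundant member. It held 1525, 1105, 1599 and 1733 scaled FPKM in WT and 1309, 1371, 1272 and 1696 in Arntl-/- cells. The low WT value at 6 h, a log2 change of -0.46 from 0 h, became 0.01 after a correction for expression level. The authors' counting kept at most 3 tags per position, and Alox5ap was the most densely covered member, with 2.18 to 5.40 reads per exon base, the most in the WT library at 6 h. The other 9 members held at most 2.80. The part of that cap in the values was not tested.

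Lta4h (chr10:92916141-92947641 in mm9, plus strand), the hydrolase that makes leukotriene B4, was at 217, 185, 212 and 278 scaled FPKM in WT and at 232, 198, 210 and 235 in Arntl-/- cells. The WT library at 48 h was the highest, and the ratio between genotypes there was 0.84 (interval 0.76 to 0.94). Neither this gene nor Alox5 or Alox5ap was past 1.5-fold from 0 h or between genotypes at any time on the main scale, which for Alox5ap is read from that dense coverage.

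**Figure D3:**
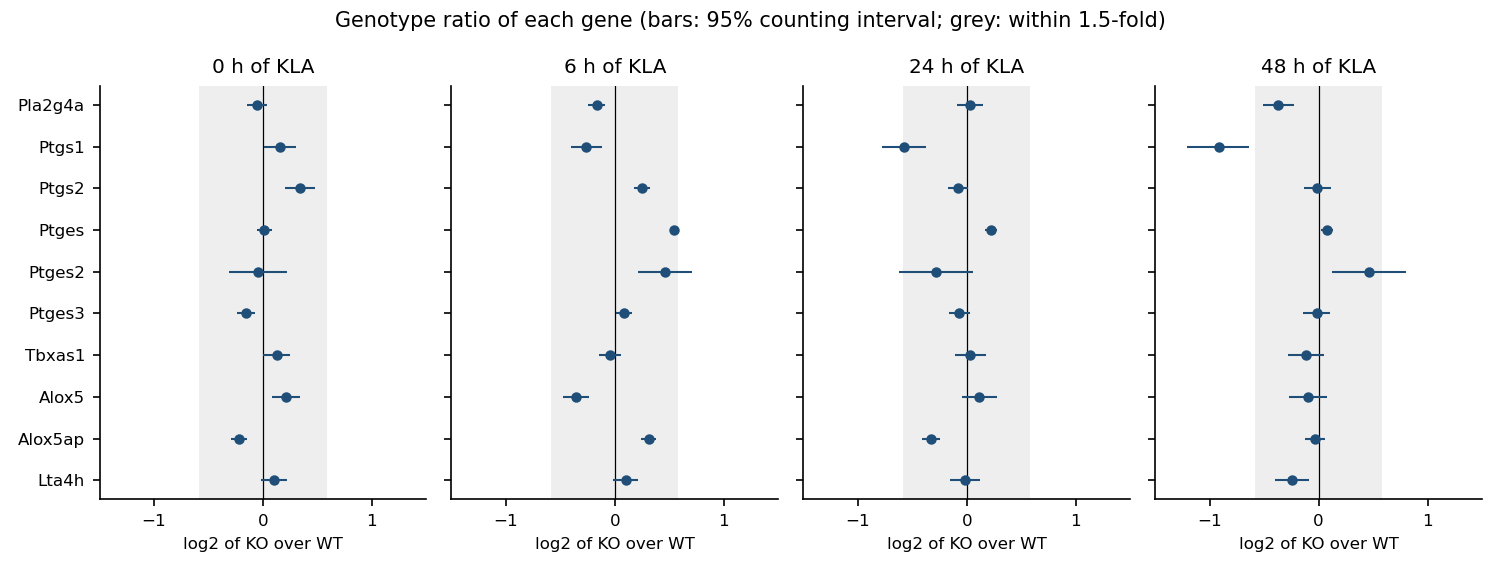
Log2 ratio of Arntl-/- (KO) to WT for the 10 genes, with 1 panel for each time of KLA, bars for the 95% counting interval and grey for ratios within 1.5-fold. Only Ptgs1 at 48 h, at -0.92, lies outside the grey band.

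Counted over the 10 genes, none was past 1.5-fold between genotypes at 0, 6 or 24 h, where 5.18%, 4.67% and 6.7% of all genes analysed were past it in either direction. At 48 h 1 of the 10, Ptgs1, was past it, beside 11.7% of the genes analysed, a number of members near that background. Over the wider set of genes with an FPKM of at least 1 in any library, which takes in genes of few reads, the shares were 21.6%, 20.8%, 22.3% and 27.4% at 0, 6, 24 and 48 h. The median log2 ratio of the 10 was between -0.06 and 0.09 at the 4 times. No member had its 4 Arntl-/- libraries all above or all below the 4 WT libraries, and 1.29% of the genes analysed did.

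Within WT cells 1 of the 10 genes rose by 6 h (Ptgs2) and 2 by 24 h and by 48 h (Ptgs2 and Ptges), and none fell. Of the genes analysed 5.36%, 8.69% and 13.5% rose by 6, 24 and 48 h, and 3.59%, 8.83% and 15.1% fell. Within Arntl-/- cells Ptgs2 and Ptges rose by all 3 times, where 3.09%, 7.8% and 15.2% of the genes analysed rose. Ptgs1 was the 1 member that fell, by 24 and by 48 h, and none fell by 6 h. The shares of the genes analysed that fell were 3.39% by 6 h, 9.57% by 24 h and 17.2% by 48 h. Each genotype is compared with its own single 0 h library, which the 3 comparisons share.

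**Figure D4:**
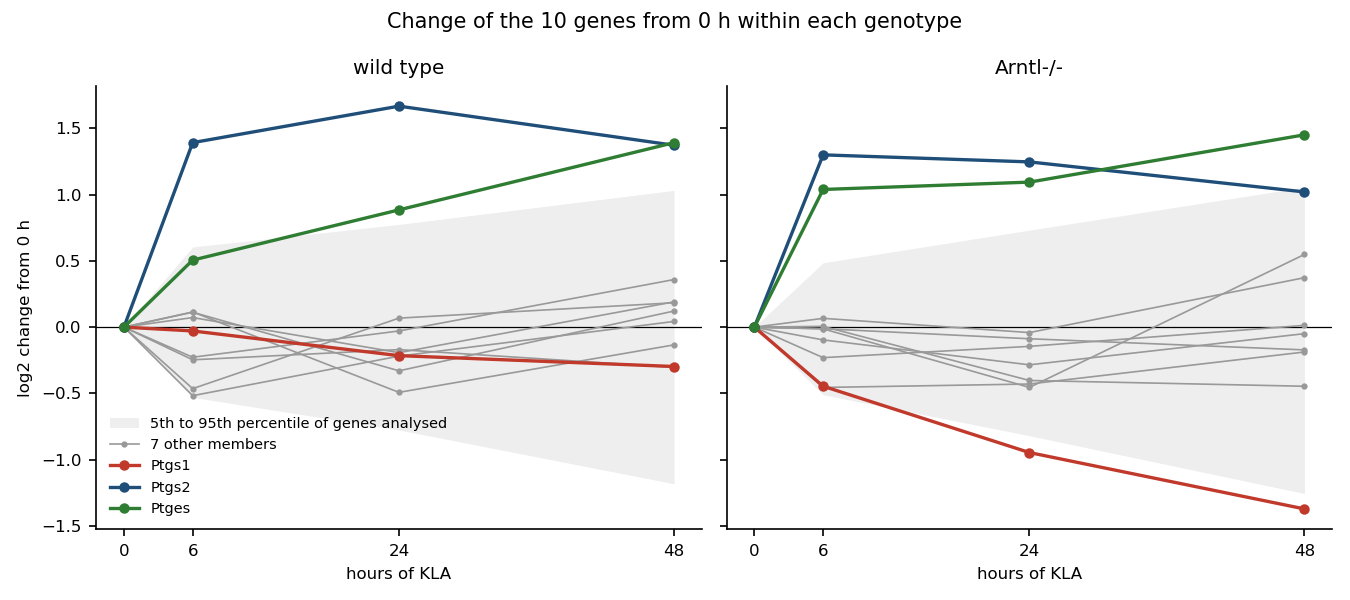
Log2 change of scaled FPKM from 0 h against hours of KLA in WT (left) and Arntl-/- (right) cells, with 1 line for each gene and grey for the 5th to 95th percentile of the genes analysed. Ptgs2 and Ptges end above 1 in both genotypes, and Ptgs1 ends at -0.30 (WT) and -1.37 (Arntl-/-).

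Genes with the time course most like that of a member were sought over the 8 libraries among 3052 genes with a range of at least 2-fold. The Pearson correlations describe 8 points that share libraries and depth. Ptgs1 was followed most closely by Abcb1a (0.975), Tarsl2 (0.974) and Tnk2 (0.973), all of which were lowest in the Arntl-/- library at 48 h. Ptgs2 was followed by Gbp6, Ccrl2 and Banp, each at 0.98, and Ptges by Slfn5 (0.990) and Clec4e (0.986). For Ptges2 the closest were Mt1 (0.918) and AI507597 (0.913), then Mt2.

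Of 63 other genes of the pathway, all were in the table and 36 were analysed. In WT cells 2 rose and 2 fell by 6 h, 5 rose and 2 fell by 24 h, and 10 rose and 3 fell by 48 h. In Arntl-/- cells 1 rose and 1 fell by 6 h, 7 rose and 4 fell by 24 h, and 15 rose and 3 fell by 48 h. The shares by 48 h were 27.8% risen and 8.33% fallen in WT and 41.7% and 8.33% in Arntl-/- cells, to be read beside the 13.5% and 15.1% (WT) and the 15.2% and 17.2% (Arntl-/-) of all genes analysed. By 24 h they were 13.9% and 5.56% in WT, beside 8.69% and 8.83% of all genes analysed. In Arntl-/- cells they were 19.4% and 11.1% by 24 h, beside 7.8% and 9.57%. By 6 h the shares were 5.56% and 5.56% in WT, beside 5.36% and 3.59%. In Arntl-/- cells they were 2.78% and 2.78% by 6 h, beside 3.09% and 3.39%. The median log2 change of the 36 at 48 h was 0.17 for WT and 0.24 for Arntl-/-, beside 0.00 and -0.01 over all genes analysed. Between genotypes 2 were higher and 1 lower at 0 h, none differed by 1.5-fold at 6 h, 1 was higher and 2 lower at 24 h, and 1 was lower at 48 h, and none passed the line in 1 direction at 3 or more times. Of all genes analysed 5.18%, 4.67%, 6.7% and 11.7% were past the line in either direction at 0, 6, 24 and 48 h.

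The genes named next are those with the largest rises and falls at 24 h in either genotype. Acsl1, which couples long-chain fatty acids to coenzyme A, rose from 403 to 939 scaled FPKM in WT cells, and in Arntl-/- cells it rose from 412 to 1125. Acsl3, of the same family, went from 66.9 to 48.6 in WT, within 1.5-fold, and fell from 60.6 to 34.3 in Arntl-/- cells. The secreted phospholipase Pla2g5 fell from 40.2 to 24.2 scaled FPKM in WT cells. Arntl-/- cells held 27.7 and 13.5, also a fall, and the level was 0.56 times WT at 24 h.

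Pla2g12a, another secreted phospholipase, rose in WT cells from 12.4 to 38.8 scaled FPKM by 24 h, and was at 35.6 and 26.7 in Arntl-/- cells. This gene had at most 232 reads in a library. The phospholipase Pla2g16 fell from 22.0 to 13.1 in WT and was at 18.2 and 15.1 in Arntl-/- cells. Ltc4s, which makes leukotriene C4, was at 29.2 and 36.0 scaled FPKM at 0 and 24 h in WT and rose from 28.7 to 66.0 in Arntl-/- cells, on at most 106 reads, with 26.1% of its exons overlapping another gene. At 48 h the order was the other way, with 81.3 in WT and 52.3 in Arntl-/- cells. Mgst3, a microsomal glutathione transferase, was at 116 and 122 in WT and fell from 158 to 92.3 in Arntl-/- cells.

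Among the receptors, Fpr2, which binds lipoxin A4 and formyl peptides, rose from 321 to 802 scaled FPKM by 24 h in WT cells, and Arntl-/- cells rose from 369 to 858. The PGE2 receptor Ptger2 rose from 40.0 to 80.4 in WT cells, and Arntl-/- cells went from 58.4 to 104. By 24 h Ptgs2, Ptges and this receptor had thus risen in both genotypes, but Ptger2 was named for the size of that rise. The PGE2 receptors Ptger1 and Ptger4 were within 1.5-fold of their 0 h level at 24 h in both genotypes. Ptger1, another PGE2 receptor, was at 351 to 491 scaled FPKM over the 8 libraries, but 28.4% of its exons overlap another gene. The prostacyclin receptor Ptgir was at 118 to 268 scaled FPKM, and rose 1.83-fold by 48 h in WT cells and 1.55-, 1.69- and 2.28-fold by 6, 24 and 48 h in Arntl-/- cells. The PGE2 receptor Ptger4, at 46.3 to 76.2, rose 1.65-fold by 48 h in Arntl-/- cells, with 16.5% of its exons overlapping genes on the opposite strand, and the cysteinyl leukotriene receptor Cysltr1, at 109 to 201, rose 1.53-fold by 24 h in those cells. Neither passed 1.5-fold in WT cells. The leukotriene B4 receptor Ltb4r1 was at 59.5 and 40.4 scaled FPKM at 0 and 24 h in WT cells. It fell from 71.7 to 27.6 in Arntl-/- cells, and at 48 h the genotypes held 57.8 and 83.6. The thromboxane receptor Tbxa2r had at most 2 reads in a library, and Ptgds and Ptgis, the lipocalin-type prostaglandin D synthase and the prostacyclin synthase, had none. Hpgds, the haematopoietic prostaglandin D synthase, named after its values were seen, was at 281 to 545 scaled FPKM and fell to 0.62 times its 0 h level by 48 h in WT and to 0.52 times in Arntl-/- cells.

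**Figure D5:**
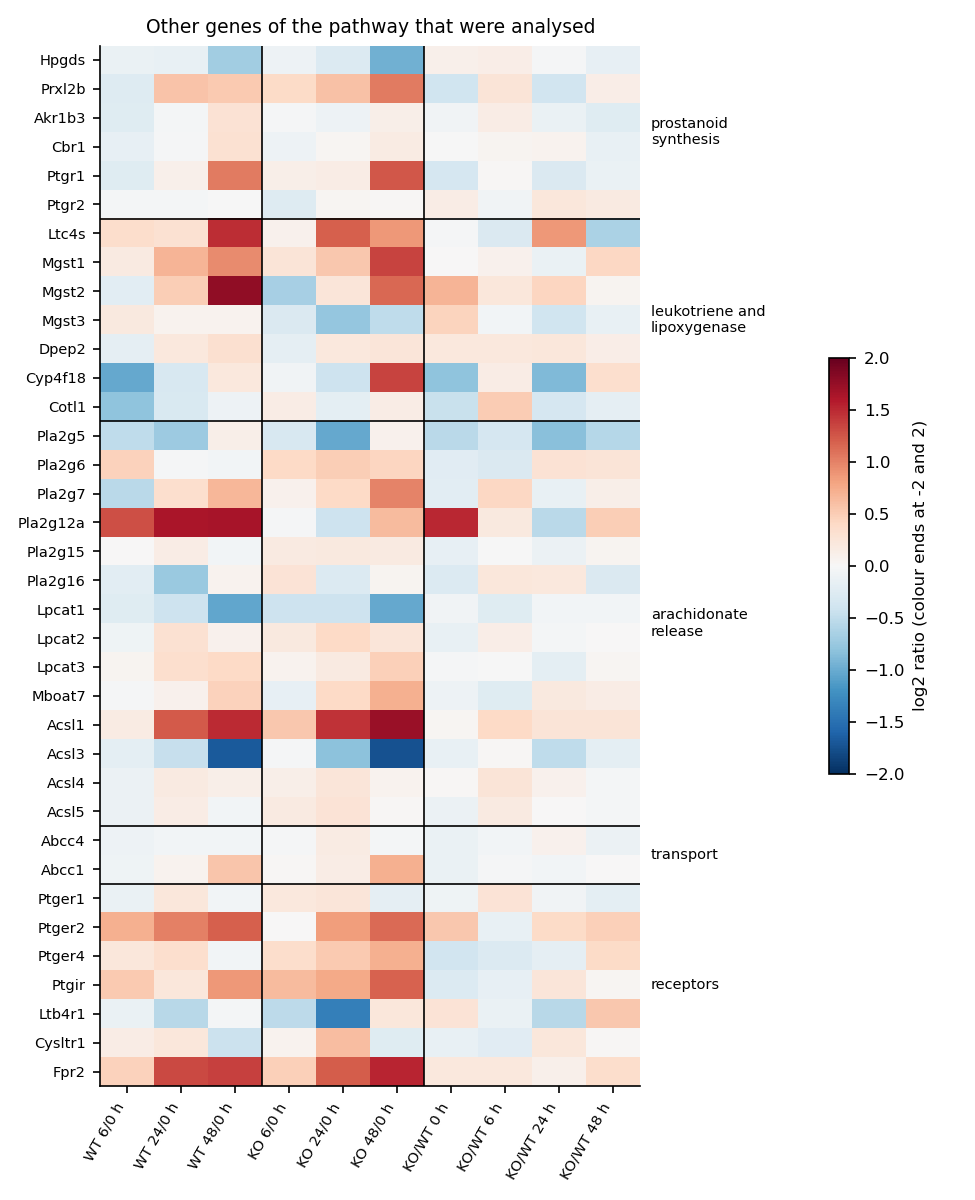
Log2 ratios, in colour from -2 (blue) to 2 (red), of the 36 other pathway genes analysed (rows, in 5 groups), for 6, 24 and 48 h over 0 h in WT and in Arntl-/- (KO) cells and for KO over WT at each time. Acsl1 and Fpr2 are red at 24 and 48 h in both genotypes, and the columns of KO over WT are pale but for single genes.

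Other cells that marrow cultures can hold express some of these genes too, and in bulk RNA fewer cells of a type and less RNA per cell cannot be told apart. Of 8 stromal markers 7 were analysed, and their summed scaled FPKM ranged over 554 to 1448 in WT and 401 to 815 in Arntl-/- libraries, with 4, 3, 4 and 5 of the 7 lower in Arntl-/- cells at 0, 6, 24 and 48 h and 1, Dcn, higher at 0 h. Of these 7, the number that rose by 6, 24 and 48 h was 2, 4 and 5 in WT and 1, 1 and 6 in Arntl-/- libraries, times at which Ptges and Ptgs2 were also above 0 h. Of 5 megakaryocyte and platelet markers 1 was analysed, and the summed level was 43.5 to 82.0 in WT and 40.8 to 105 in Arntl-/- cells. The 1 analysed, Ppbp, was in Arntl-/- cells at 1.40, 1.10, 0.51 and 1.25 times WT at 0, 6, 24 and 48 h. Of 9 neutrophil markers 8 were in the table and 4 analysed, and the sum was 1236 to 2570 in WT and 1970 to 2885 in Arntl-/- cells. Of the 4 analysed, 2 were higher in Arntl-/- cells at 0 h, 4 at 6 h, 1 at 24 h and none at 48 h, and S100a9 was at 2.46 and 2.06 times WT at 0 and 6 h, with 371 against 148 scaled FPKM at 24 h. By 48 h S100a9 was down to 10.1 in WT and 9.0 in Arntl-/- libraries and Ltf to 0 in both, while S100a8 and Mmp8 had risen in both. The granule gene Mpo was at 0 in every library. Mast cell markers summed to at most 2.44 in WT and 5.87 in Arntl-/- cells, with 4 of the 7 at 3 reads or fewer in every library. The part of stromal, platelet and neutrophil RNA in the values above was not tested.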

How the data were processed

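PolyA RNA-seq of BMDMs was analysed, with 1 library for each genotype and time. The authors aligned the reads to mm9 with STAR, used HOMER to count reads over the exons of RefSeq transcripts without regard to strand and with at most 3 tags per position, and deposited FPKM values scaled to 10000000 reads over all transcripts, with 1 transcript per gene. Overlapping genes on opposite strands are therefore not separated. Of the value columns, 4 matched no sample and were not used, and 1 broken line was left out.

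Reads behind each value were recovered from FPKM multiplied by length: 100% of low values were whole within 0.15 of a read. Scaling used size factors by the median of ratios over the 8 libraries (Python 3.11.15, numpy 2.4.6, pandas 2.3.3), and log2 ratios used a pseudocount of 0.1. Counting intervals (exact binomial, 95%) came from the recovered reads (scipy 1.17.1). The calculation was tested on simulated data. Genes analysed had at least 100 scaled reads in at least 1 WT library.

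Conditions were not tested against each other, for want of replicates. The members, the pathway and marker lists and the rules for naming genes were chosen with earlier results of these data known. The rules named all members, and among other pathway genes the 4 largest rises and 4 largest falls at 24 h in each genotype, receptors by level, and the 3 genes most correlated with each member that varied at least 2-fold. Of the genes so named, 1 is not reported here. Alternatives were values as deposited, upper-quartile scaling, a lowess correction for expression level (fraction 0.3), pseudocounts of 1 and 0.01, a 2-fold line, other backgrounds and, added after the values were seen, size factors without the WT library at 6 h. Promoters came from RefSeq (GRCm38.p6) and other coordinates from the table (mm9).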

Additional observations from a re-analysis of the deposited data

How the results depend on the processing

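No paired test was made, since the design had none: the genotypes are matched by time, but the 4 times are different conditions, not replicates. With upper-quartile scaling and with the correction for expression level, 1 member (Ptgs1) was past 1.5-fold between genotypes at 24 h in place of 0. Within WT cells at 6 h, 2 members were past it with the values as deposited (Ptges in addition) and 3 with the correction (Ptges and Ptges2 in addition) in place of 1. With a 2-fold line no member differed between genotypes at 48 h (0 in place of 1, Ptgs1), and 1 in place of 2 rose in WT cells by 24 h (Ptges lost). In Arntl-/- cells, 2 members in place of 1 fell by 48 h with the values as deposited (Pla2g4a in addition, at -0.62), 3 in place of 2 rose by 48 h with upper-quartile scaling and with the correction (Ptges2 in addition), and 0 in place of 1 fell by 24 h with a 2-fold line (Ptgs1 lost). The background of genes with an FPKM of at least 1 raised the share of genes past 1.5-fold by over 1.5 times in 8 of 10 comparisons, and that of mean reads of at least 100 in none. The other counts of members were within 1.5 times, and no member past 1.5-fold changed direction under any alternative run. As deposited, the median gene itself moved by 0.13 in log2 from 0 to 6 h in WT and by -0.18 from 0 to 48 h in Arntl-/- cells. Over the alternatives the log2 ratio of Ptgs1 at 48 h was -0.92 to -0.88. Without the WT library at 6 h in the size factors, added after the values were seen, none of the 8 counts that do not use that library changed. The spread between cultures was not measured, so differences of any size rest on single libraries.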
